A study of Mus musculus with 19 samples.

Results

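The 43 mouse genes described here carry out mitosis and the separation of chromosomes. They were chosen by name, with earlier results of these data known, so the list is not independent of the data. The arrays held 49 probe sets for 38 of them, out of 12488 probe sets in all, and 37 of these probe sets, for 32 genes, were bright enough to test. A probe set is a group of short oligonucleotides that together report 1 transcript, and its value is a signal intensity on a linear scale. Ccnb1, Cdc25b, Fbxo5, Bub1b and Hmmr had no probe set of their own, and Aurka, Bub1, Birc5, Cenpe, Kif4 and Tacc3 had only probe sets under the filter, which removed mean signals up to 26.4. No member sat on a probe set with several gene symbols. A gene with several tested probe sets was counted by the brightest.

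The samples were OT-I CD8+ T cells, which carry 1 transgenic T cell receptor, for an ovalbumin peptide, on their CD8 T cells. B6 mice received them by transfer, and they were later sorted from the lymph nodes or spleen of these hosts. Irradiated hosts gave 8 arrays titled day 5, 4 of day 40 and 3 of day 115, and unirradiated hosts gave 4 arrays. Irradiation removes most lymphocytes of the host, and transferred T cells can divide in the emptied space. Sorting at day 6 is given in the description of each array titled day 5 and of each unirradiated host, and groups here go by title. The descriptions of day-5 arrays 1 and 2 name no cell type. No unirradiated host was sampled at day 40 or 115, so at those days the host and the time after transfer cannot be told apart. Neither age nor sex of the mice was stated, nor that the arrays came from separate animals, so p-values measure only the spread between these arrays.

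A cell enters mitosis when the kinase Cdk1, bound to cyclin A or B, is switched on by Cdc25 phosphatases. Condensin and topoisomerase II compact and untangle the chromosomes, kinesins and other microtubule proteins build the spindle, and checkpoint proteins hold the cell until every kinetochore is attached. The anaphase-promoting complex then marks cyclins for destruction, chromosomes part and the cell divides. Most of these genes are transcribed late in the cell cycle, largely through promoter elements called the CHR (cell cycle genes homology region) and the CCAAT box, so resting T cells hold little of their RNA.

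The promoters of Cdk1, Ccnb2 and Top2a, which were higher at day 5 in irradiated than in unirradiated hosts, and that of the proliferation marker Mki67 are shown for the 2 elements. Each window runs from 250 bases before to 50 bases after the start of the gene, 5′ to 3′ on the strand of the gene, in RefSeq's GRCm38.p6 table. Capitals mark TTTGAA, the core of the CHR, or CCAAT, on either strand, so that TTCAAA and ATTGG are in capitals too. All 4 genes lie on the minus strand, Cdk1 at chr10:69352863-69353162, Ccnb2 at chr9:70421505-70421804, Top2a at chr11:99024140-99024439 and Mki67 at chr7:135716330-135716629.
Cdk1: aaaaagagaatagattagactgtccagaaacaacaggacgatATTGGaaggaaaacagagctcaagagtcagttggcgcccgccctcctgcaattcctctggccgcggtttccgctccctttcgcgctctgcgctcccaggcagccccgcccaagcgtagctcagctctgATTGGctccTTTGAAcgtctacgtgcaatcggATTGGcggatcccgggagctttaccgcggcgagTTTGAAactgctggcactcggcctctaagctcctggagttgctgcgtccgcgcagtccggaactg
Ccnb2: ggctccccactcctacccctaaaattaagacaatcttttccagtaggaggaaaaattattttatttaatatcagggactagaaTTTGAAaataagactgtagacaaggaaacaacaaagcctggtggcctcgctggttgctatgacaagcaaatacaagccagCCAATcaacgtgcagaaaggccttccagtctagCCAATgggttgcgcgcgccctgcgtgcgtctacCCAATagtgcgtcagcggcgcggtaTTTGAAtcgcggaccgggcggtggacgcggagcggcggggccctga
Top2a: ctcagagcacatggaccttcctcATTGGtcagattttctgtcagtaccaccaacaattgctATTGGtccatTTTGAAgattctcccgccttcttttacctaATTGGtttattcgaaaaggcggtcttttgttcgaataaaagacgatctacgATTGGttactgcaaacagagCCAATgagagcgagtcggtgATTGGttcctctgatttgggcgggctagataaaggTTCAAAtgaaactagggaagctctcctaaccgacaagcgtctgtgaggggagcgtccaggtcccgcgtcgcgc
Mki67: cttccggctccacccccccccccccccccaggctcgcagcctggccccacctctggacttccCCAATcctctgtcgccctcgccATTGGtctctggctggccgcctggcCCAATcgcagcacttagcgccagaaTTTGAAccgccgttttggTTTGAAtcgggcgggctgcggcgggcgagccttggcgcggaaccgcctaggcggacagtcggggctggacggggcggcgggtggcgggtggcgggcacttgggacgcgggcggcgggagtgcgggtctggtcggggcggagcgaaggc

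Each of the 4 windows held 2 copies of TTTGAA and at least 3 of CCAAT. In Cdk1 the copies of TTTGAA began 71 and 15 bases before the start, and in Mki67 they began 116 and 98 bases before it. In Ccnb2 the 3 copies of CCAAT began 87, 54 and 21 bases before the start. Top2a held 6 copies of CCAAT, more than the other 3 windows. A promoter entry was found for 35 of the 43 genes. TTTGAA lay in a window of 26 of these 35 genes (74.3%), against 3230 of 17492 protein-coding genes with an entry (18.5%). CCAAT lay in 30 of the 35 (85.7%), against 42.3% of all, and both were in 1 window for 24 (68.6%), against 7.4% of all. Copies can share letters, as in Ube2c, where copies of CCAAT on opposite strands began 186 and 183 bases before the start. A match is a description of the letters and not a binding site, and no match says only that the letters are not in this window. Ccna2, Cdc25c, Aurkb, Incenp, Kif20a, Stmn1, Smc4 and Lmnb1 had no entry.

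Array medians lay between 49.6 and 53.7 signal units. Average-linkage clustering split the arrays into array cluster 1, which took 3 of the day-5 arrays (1 to 3), 2 of day 40 (1 and 2) and the 3 of day 115, and array cluster 2, which took the other 11, the 4 unirradiated hosts among them. The labels do not say what the clusters are. Day 115 against unirradiated hosts compares the clusters as well, so results are given for groups alone, with the cluster as a term, and within a cluster where both groups have arrays. The 7 measured CD8 T cell identity genes, of 8 listed, summed to 9164 to 14457 at day 5, 8771 to 14077 at day 40, 10303 to 12565 at day 115 and 8404 to 10168 in unirradiated hosts. B cell markers (10 of 11 measured) summed to 731 to 1546, 978 to 1833, 1342 to 2836 and 692 to 940 in the same order, and plasma cell markers (7 of 8) to 929 to 2055, 1136 to 2358, 2567 to 3529 and 721 to 852. No marker was at 0, since the lowest value in the table was 7.68. In bulk RNA, fewer cells of a type and less RNA per cell cannot be told apart.

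The median level of the 32 tested mitosis genes was higher in each day-5 array than in any array of the other groups, but few of the genes were called against unirradiated hosts. At day 5 the arrays differed widely among themselves, while at the later days and in unirradiated hosts they lay close together. The values of each array, on log2(signal + 16) and relative to the mean of the unirradiated hosts, had a median over the 32 genes of 0.67, 0.18, 0.33, 1.12, 0.66, 0.60, 0.11 and 0.27 in day-5 arrays 1 to 8. The same medians lay between -0.13 and -0.06 in the day-40 arrays, between -0.20 and -0.05 in the day-115 arrays and between -0.02 and 0.06 in the unirradiated hosts. Each of the 8 day-5 medians was above every median of the other groups. The median over all tested probe sets stayed between -0.03 and 0.10 in every array.

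**Figure D1:**
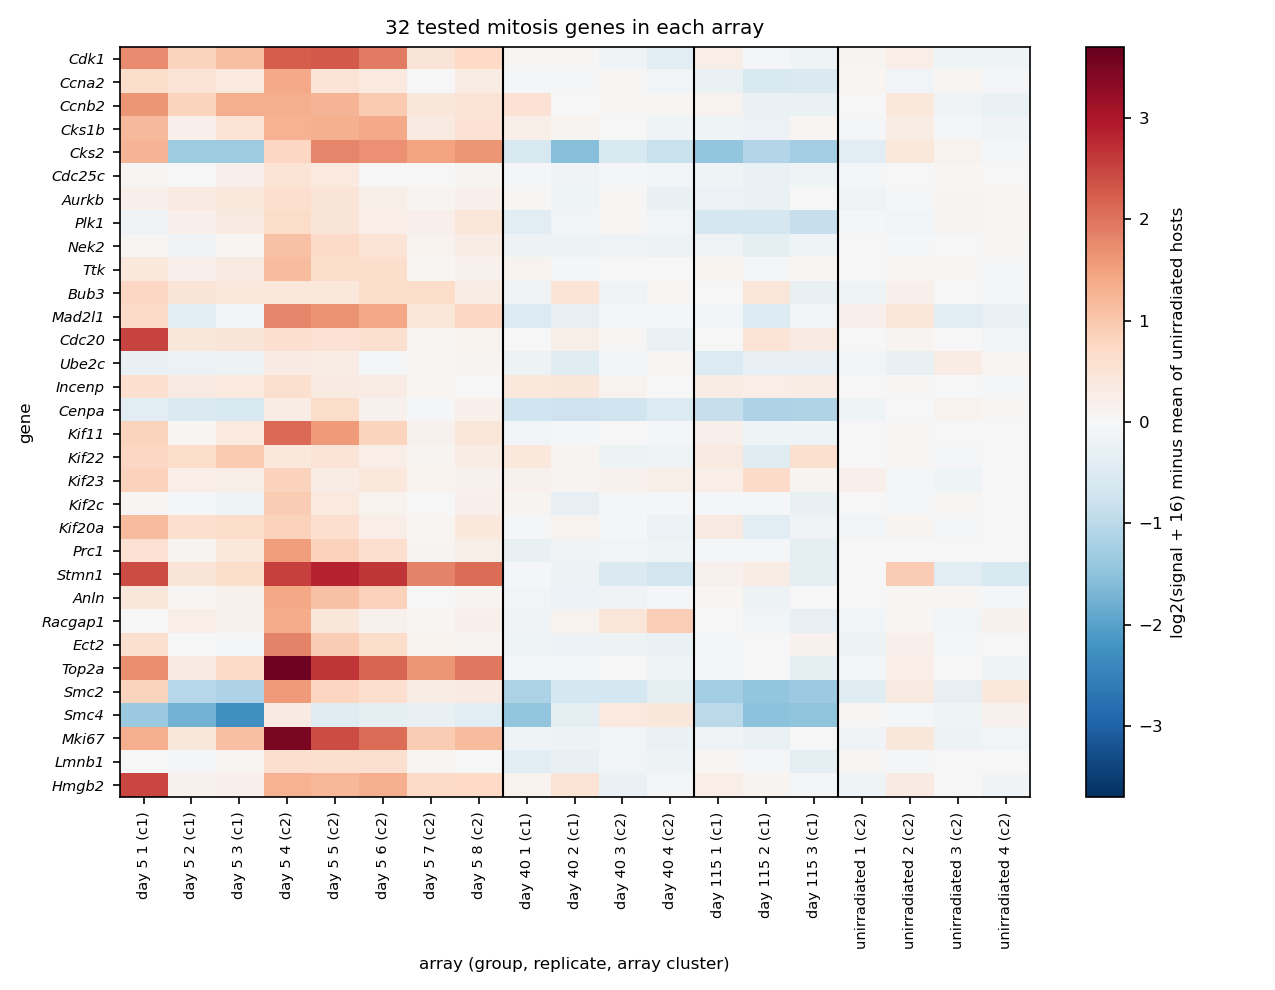
Log2(signal + 16) of the 32 tested genes (rows, by role) in each of the 19 arrays (columns, by group, replicate and array cluster, c1 or c2), minus the mean of the 4 unirradiated hosts. The day-5 columns are mostly red and strongest in arrays 4, 5, 6 and 1, with medians of 1.12, 0.66, 0.60 and 0.67, whereas columns of day 40, day 115 and unirradiated hosts are pale apart from a few genes such as Cks2, Smc2 and Smc4.

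Of the cyclins, Cdk1 and their regulators, only Cdk1 and Ccnb2 had every day-5 array above every unirradiated host. Cdk1, the kinase that drives entry into mitosis, had a lowest, median and highest signal of 86.2, 186 and 333 at day 5. It stood at 58.6, 58.7, 50.5 and 39.6 at day 40, at 70.2, 54.3 and 48.9 at day 115, and at 61.9, 69.7, 49.0 and 48.8 in unirradiated hosts. Every day-5 array was above every other array. Ccnb2, cyclin B2, ran from 118 over a median of 203 to 297 at day 5, against 129, 85.7, 87.6 and 87.6 at day 40, 94.0, 70.2 and 69.5 at day 115, and 84.5, 117, 76.3 and 69.1 in unirradiated hosts. All day-5 arrays were above the day-115 arrays and the unirradiated hosts, by a narrow margin over unirradiated array 2, and day-40 array 1 reached into their range. Ccna2, cyclin A2, ran from 124 over 172 to 352 at day 5, against 116, 116, 126 and 113 at day 40, 102, 77.8 and 80.1 at day 115, and 129.7, 115, 132 and 117 in unirradiated hosts. The day-115 arrays were below all others, and day 5, day 40 and unirradiated hosts overlapped.

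Cks1b and Cks2 encode small subunits that bind Cdk1 and help it reach its substrates. Cks1b ran from 59.6 over 109 to 160.5 at day 5, against 61.0, 56.1, 49.3 and 43.4 at day 40, 43.1, 41.6 and 53.9 at day 115, and 47.1, 64.3, 47.9 and 44.6 in unirradiated hosts. Day-5 array 2 and unirradiated array 2 brought those groups into overlap. Cks2 was 520.5, 74.0 and 73.4 in day-5 arrays 1 to 3 and 366, 767, 710.0, 611 and 682 in arrays 4 to 8. It was 131, 58.3, 136 and 110.2 at day 40, 64.7, 90.0 and 75.6 at day 115, and 149.6, 277, 227 and 195 in unirradiated hosts. Day-5 arrays 2 and 3 were thus below every unirradiated host, and the other 6 were above all of them. Cdc25c, a phosphatase that activates Cdk1, ran from 37.7 over 40.3 to 59.9 at day 5, against 34.8, 32.9, 35.6 and 33.4 at day 40, 31.5, 28.9 and 31.7 at day 115, and 35.3, 36.7, 40.5 and 37.5 in unirradiated hosts. Its groups lay close together, with the day-115 arrays lowest.

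Among the mitotic kinases, Plk1, which acts at centrosomes, kinetochores and the dividing cell's midzone, had 3 tested probe sets. The brightest ran from 119 over 165 to 221 at day 5, against 93.8, 121, 137 and 121 at day 40, 78.6, 80.8 and 65.5 at day 115, and 126, 120.4, 142 and 140.0 in unirradiated hosts. The day-115 arrays were below all others, and the other groups overlapped. The dimmest of the 3 (93099_f_at) ran from 37.5 over 46.3 to 55.0 at day 5, against 35.0, 29.5, 30.3 and 24.5 at day 40, 28.7, 36.7 and 25.0 at day 115, and 35.4, 31.5, 28.7 and 29.7 in unirradiated hosts. In that probe set every day-5 array was above every other array. The probe sets therefore differed at day 115, where the third one (101350_g_at) was at 87.6, 80.7 and 117, against 81.8, 75.7, 75.0 and 73.9 in unirradiated hosts.

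Aurkb is the kinase of the chromosomal passenger complex, which corrects faulty attachments. It ran from 120.0 over 138 to 178 at day 5, against 114, 98.3, 114 and 89.8 at day 40, 93.4, 90.8 and 109 at day 115, and 101, 106, 121 and 117 in unirradiated hosts. All day-5 arrays were above those of day 40 and day 115, and 1 unirradiated host reached their range. Nek2, which splits the centrosomes, ran from 55.5 over 75.1 to 149 at day 5, against 53.0, 53.7, 56.3 and 53.6 at day 40, 55.4, 46.0 and 54.5 at day 115, and 62.2, 60.1, 63.5 and 64.9 in unirradiated hosts. Only the day-115 arrays lay wholly below day 5, and by a narrow margin. Ttk, a kinase of the spindle checkpoint, ran from 21.9 to 66.3 at day 5 and from 18.7 to 24.6 over the other 11 arrays.

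Of the checkpoint genes, Mad2l1 encodes a protein that blocks the anaphase-promoting complex until chromosomes are attached. It ran from 60.02 over 151 to 337 at day 5, against 54.6, 64.6, 81.0 and 82.2 at day 40, 76.6, 55.1 and 77.4 at day 115, and 98.3, 121, 60.8 and 68.1 in unirradiated hosts. The groups overlapped through day-5 arrays 2 and 3, which held 60.02 and 77.5. Bub3, which recruits checkpoint proteins to kinetochores, ran from 360.0 over 404 to 504 at day 5, against 266, 420.4, 265 and 303 at day 40, 287, 401 and 238 at day 115, and 261, 334, 293 and 285 in unirradiated hosts. All day-5 arrays were above the unirradiated hosts, while 1 array of day 40 and 1 of day 115 reached the day-5 range. Cdc20, the activator of the anaphase-promoting complex, was at 771 in day-5 array 1 and from 129 to 195 in the other 7, against 112 to 131 in unirradiated hosts. Ube2c, a ubiquitin-conjugating enzyme of that complex, had the smallest difference of the checkpoint group, at 91.1 ± 16.3 at day 5 (SD, n = 8), against 91.2 ± 17.6 in unirradiated hosts (n = 4).

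Cenpa, the histone that marks centromeres, averaged 123 ± 43.3 at day 5 and 121 ± 11.3 in unirradiated hosts. It ran from 74.6 over 127 to 203 at day 5, against 65.6, 64.8, 66.8 and 80.5 at day 40, 60.1, 46.4 and 47.8 at day 115, and 107, 119, 135 and 124 in unirradiated hosts. The day-5 range enclosed the unirradiated hosts, and the arrays of both later days were below all unirradiated hosts. Incenp, the scaffold of the chromosomal passenger complex, was at 101 ± 18.01 at day 5 and 77.0 ± 3.38 in unirradiated hosts, and its groups overlapped.

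In the kinesin and spindle group, Stmn1 encodes stathmin, which binds tubulin and takes microtubules apart. Its brighter probe set (97909_at) held 964, 242, 281, 1046, 1320.5, 1131, 649.6 and 758 in day-5 arrays 1 to 8. It held 161, 146, 112 and 101 at day 40, 191, 208 and 129 at day 115, and 171, 341, 126 and 107 in unirradiated hosts. Unirradiated array 2 was above day-5 arrays 2 and 3, and the other 6 day-5 arrays were above every array of the other groups. The other Stmn1 probe set (97910_at) ran from 27.0 over 30.6 to 38.2 at day 5, against 41.3, 34.5, 27.7 and 28.9 at day 40, 31.8, 31.3 and 30.8 at day 115, and 29.6, 30.6, 30.4 and 35.4 in unirradiated hosts. That dim probe set showed no separation of the groups.

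Kif20a and Kif22 are kinesins, motors that act in the midzone of the dividing cell and on chromosome arms. Kif20a ran from 50.1 over 81.1 to 127 at day 5, against 44.9, 53.7, 44.5 and 39.1 at day 40, 64.3, 31.4 and 41.9 at day 115, and 43.6, 52.6, 45.8 and 48.2 in unirradiated hosts. Day-5 array 7, the lowest of its group, was the only one that fell among the unirradiated hosts. Kif22 ran from 82.2 over 109.7 to 162 at day 5, against 105, 82.7, 64.2 and 66.7 at day 40, 99.6, 51.5 and 124 at day 115, and 76.7, 79.7, 71.1 and 76.5 in unirradiated hosts. Every day-5 array was above the unirradiated hosts, and the day-115 arrays were scattered. Prc1, which bundles the microtubules of the midzone, ran from 72.2 over 101 to 224 at day 5, against 53.2, 59.7, 61.3 and 58.9 at day 40, 64, 63.0 and 49.0 at day 115, and 67.5, 68.4, 65.6 and 66.8 in unirradiated hosts. All its day-5 arrays were above all others.

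Kif11, the motor that pushes the spindle poles apart, ran from 22.5 over 40.9 to 138 at day 5 and from 19.8 to 21.3 in unirradiated hosts, with no overlap of these groups. Kif23, a midzone motor, ran from 233 to 402 and from 191 to 247, and Kif2c, which shortens microtubules at kinetochores, from 22.9 to 67.8 and from 26.0 to 28.8, in the same order. The cytokinesis genes Anln, which links actin and myosin in the contractile ring, Racgap1 and Ect2, which control the GTPase that drives the ring, had day-5 maxima of 107, 402 and 148, all in array 4. Their highest unirradiated signals were 30.9, 161 and 35.8, and in each gene day 5 and unirradiated hosts overlapped. Day-5 medians were 40.3, 165 and 43.3, against 30.4, 142 and 29.6 in unirradiated hosts. Racgap1 averaged 194 ± 67.4 at day 40 and 195 ± 85.0 at day 5 (SD), so it was not lower at day 40.

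In the chromosome structure group, Top2a encodes topoisomerase II alpha, which untangles sister chromatids. It held 160.0, 51.6, 72.1, 635, 322, 220.5, 150.1 and 193 in day-5 arrays 1 to 8. It held 35.9, 35.4, 37.6 and 31.8 at day 40, 35.9, 37.6 and 26.9 at day 115, and 34.9, 47.1, 37.6 and 32.03 in unirradiated hosts. Every day-5 array was above every other array, although day-5 array 2 was close to unirradiated array 2. Mki67, which coats mitotic chromosomes and is a marker of dividing cells, held 76.6, 32.5, 62.0, 386, 179, 135, 53.0 and 65.8 in the brighter probe set (99457_at) at day 5. It held 16.2, 15.7, 17.9 and 14.7 at day 40, 17.4, 14.6 and 19.8 at day 115, and 17.4, 32.8, 15.6 and 17.6 in unirradiated hosts. Apart from unirradiated array 2, which was level with day-5 array 2, the day-5 arrays stood above all others. The other Mki67 probe set (161931_r_at) ran from 28.1 over 34.0 to 46.1 at day 5, against 26.4, 27.3, 30.4 and 25.5 at day 40, 37.0, 26.4 and 30.8 at day 115, and 31.6, 31.4, 31.4 and 29.0 in unirradiated hosts. Its groups overlapped, and its day-5 arrays had another order than those of the brighter probe set.

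**Figure D2:**
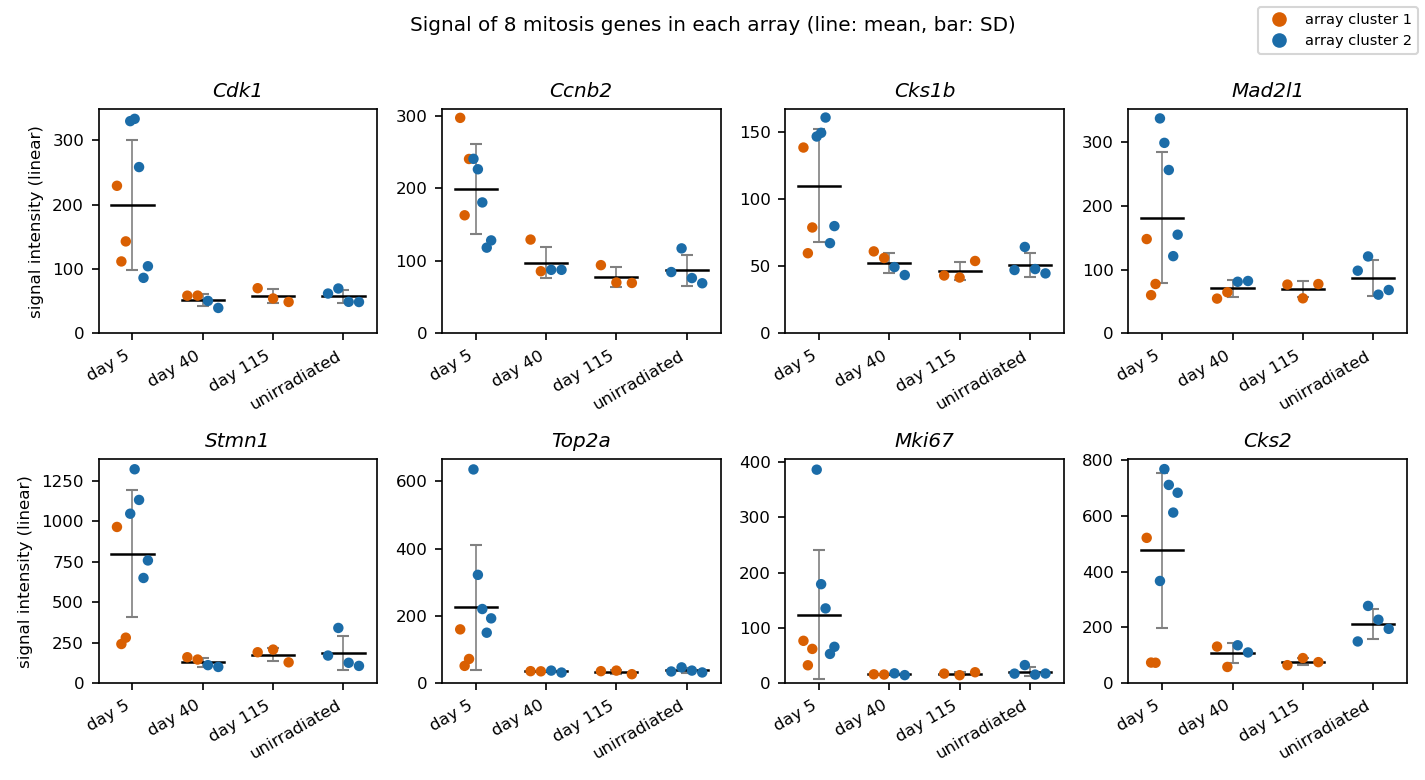
Signal intensity (linear axis from 0) of 8 mitosis genes in each array, by group, with a line at the group mean, a bar of 1 SD and colours for the array cluster (n = 8, 4, 3 and 4 arrays). Day-5 points spread widely, as for Top2a from 51.6 to 635, and the points of day 40, day 115 and unirradiated hosts sit mostly lower and closer together. In every gene shown but Cdk1 and Top2a, the lowest day-5 points fall within the range of the other groups, as for Cks2 in arrays 2 and 3.

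Smc2 and Smc4 encode the core of condensin, the complex that compacts chromosomes. Smc2 was at 217, 47.0 and 43.1 in day-5 arrays 1 to 3 and at 372, 213, 184, 141 and 146 in arrays 4 to 8. It was at 42.6, 66.7, 66.9 and 87.8 at day 40, 39.2, 31.7 and 35.5 at day 115, and 79.5, 150.3, 90.9 and 156 in unirradiated hosts. The day-115 arrays were the lowest, and the day-5 arrays of cluster 1 lay on both sides of the unirradiated hosts. Smc4 was at 622, 476 and 332 in day-5 arrays 1 to 3 and at 2028, 1212, 1314, 1358 and 1262 in arrays 4 to 8. It was at 589, 1304, 2113 and 2210.4 at day 40, 819, 566 and 579.6 at day 115, and 1685, 1611, 1474 and 1855 in unirradiated hosts. Smc4 was low in most arrays of cluster 1, whatever the group, and it was the member least like the rest. Lmnb1, a lamin of the nuclear envelope, ran from 50.7 over 56.5 to 89.7 at day 5, against 36.4, 40.4, 48.2 and 44.3 at day 40, 55.2, 50.7 and 38.8 at day 115, and 55.4, 51.2, 51.6 and 52.6 in unirradiated hosts. All day-40 arrays were below the day-5 arrays and the unirradiated hosts. Hmgb2, a chromatin protein that bends DNA, was at 240.5 in day-5 array 1 and from 35.0 to 100.4 in the other 7, against 25.0 to 40.6 in unirradiated hosts.

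The 6 members with only dim probe sets were not tested. In the brightest probe set of each, Birc5, which encodes survivin of the chromosomal passenger complex, ran from 18.6 to 55.3 at day 5 and from 12.0 to 16.3 in unirradiated hosts, with no overlap. Tacc3, a stabiliser of spindle microtubules, ran from 12.4 to 49.0 and from 11.2 to 15.2, and Aurka, a centrosomal kinase, from 17.1 to 43.2 and from 17.3 to 19.9, in the same order. Bub1, a checkpoint kinase, reached 66.6 in day-5 array 4, against at most 18.4 in unirradiated hosts. Kif4, a motor on chromosome arms, ran from 19.5 to 33.3 at day 5 and from 18.4 to 22.5 in unirradiated hosts, and Cenpe, a kinetochore motor, from 11.3 to 15.8 and from 11.8 to 13.4. When the filter was dropped, the counts of called members were the same in every comparison, with 38 genes tested.

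Day 5 against unirradiated hosts asked whether cells in irradiated hosts held more RNA of mitosis genes early after transfer. Cdk1, Ccnb2, Stmn1 and Top2a, 4 of the 32 tested members, were higher at day 5 and none was lower, while 29 of the 32 differences were positive. Of all 8695 probe sets, 0.414% were called higher and 0.794% were called in either direction. The median difference of the 32 genes was 0.51 on the log2(signal + 16) scale, against 0.03 over all probe sets. On limma's unadjusted p, 22 members were under 0.05, all higher, against 13.5% of all probe sets. When only the arrays of these groups entered the fit, all 4 calls were lost, with adjusted p of 0.082 for Cdk1, 0.0556 for Ccnb2, 0.0868 for Stmn1 and 0.108 for Top2a. All day-5 arrays were above all unirradiated hosts in Cdk1, Ccnb2, Bub3, Kif11, Kif22, Prc1 and Top2a, 7 of 32, against 1.77% of all probe sets. Mki67 (99457_at), Kif11 and Ttk averaged under 26.4 in every group but day 5, so they passed the filter only through day 5. Kif2c averaged 25.2 at day 40, 23.9 at day 115 and 27.5 in unirradiated hosts, against 34.8 at day 5, so its passing too rested on day 5. These genes enter the counts that involve day 5, here and below, and their part in those counts is a description.

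Stmn1 had the largest difference among the members at 1.94 ± 0.40 (log2 ± SE; limma, adjusted p = 0.0271), a fold of 3.83, followed by Top2a at 1.84 ± 0.39 (adjusted p = 0.0348), a fold of 3.59. Cdk1 differed by 1.41 ± 0.28 (adjusted p = 0.0254) and Ccnb2 by 1.03 ± 0.20 (adjusted p = 0.0211). Mki67 missed the threshold at 1.62 ± 0.38 (adjusted p = 0.0508), and its other probe set differed by 0.11 (adjusted p = 0.521). The other Stmn1 probe set differed by 0.00 (adjusted p = 0.993). The dimmest probe set of Plk1 was called at 0.39 ± 0.09 (adjusted p = 0.0378), whereas the brightest, by which the gene was counted, differed by 0.30 (adjusted p = 0.302). Hmgb2 at 1.01 (adjusted p = 0.151), Cks1b at 0.84 (0.0657) and Kif11 at 0.80 (0.211) were the largest of the other uncalled differences above 0. Ube2c at -0.00, Cenpa at -0.03 and Smc4 at -0.82 (adjusted p = 0.383) were the members at or below 0.

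With the cluster as a term, 7 members were called, the same 4 and Cks1b (0.89), Mad2l1 (1.12) and Mki67 (1.88, adjusted p = 0.00777), against 1% of all probe sets called higher. Stmn1 then differed by 2.17, Top2a by 2.20, Cdk1 by 1.45 and Ccnb2 by 0.91. Within cluster 2, where 5 day-5 arrays met the 4 unirradiated hosts, 10 members were called, these 7 and Cks2 (1.48), Bub3 (0.48) and Hmgb2 (1.06), against 1.41% of all probe sets. The calls from groups alone were fragile: that of Top2a was lost without day-5 array 1, 5 or 6 or any 1 unirradiated host, those of Cdk1 and Stmn1 without day-5 array 1, and those of Cdk1, Stmn1 and Ccnb2 without any 1 of unirradiated arrays 1, 3 and 4. The call of the dimmest Plk1 probe set was lost in 9 of 12 such fits. Since later and unirradiated signals of Mki67 were mostly under the filter level, its difference depended on the pseudocount: it was 2.15 with 1 and was called (adjusted p = 0.0267), and 0.97 with 64 and was not (adjusted p = 0.125). Top2a lost its call with a pseudocount of 64, at 1.29 (adjusted p = 0.0626).

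**Figure D3:**
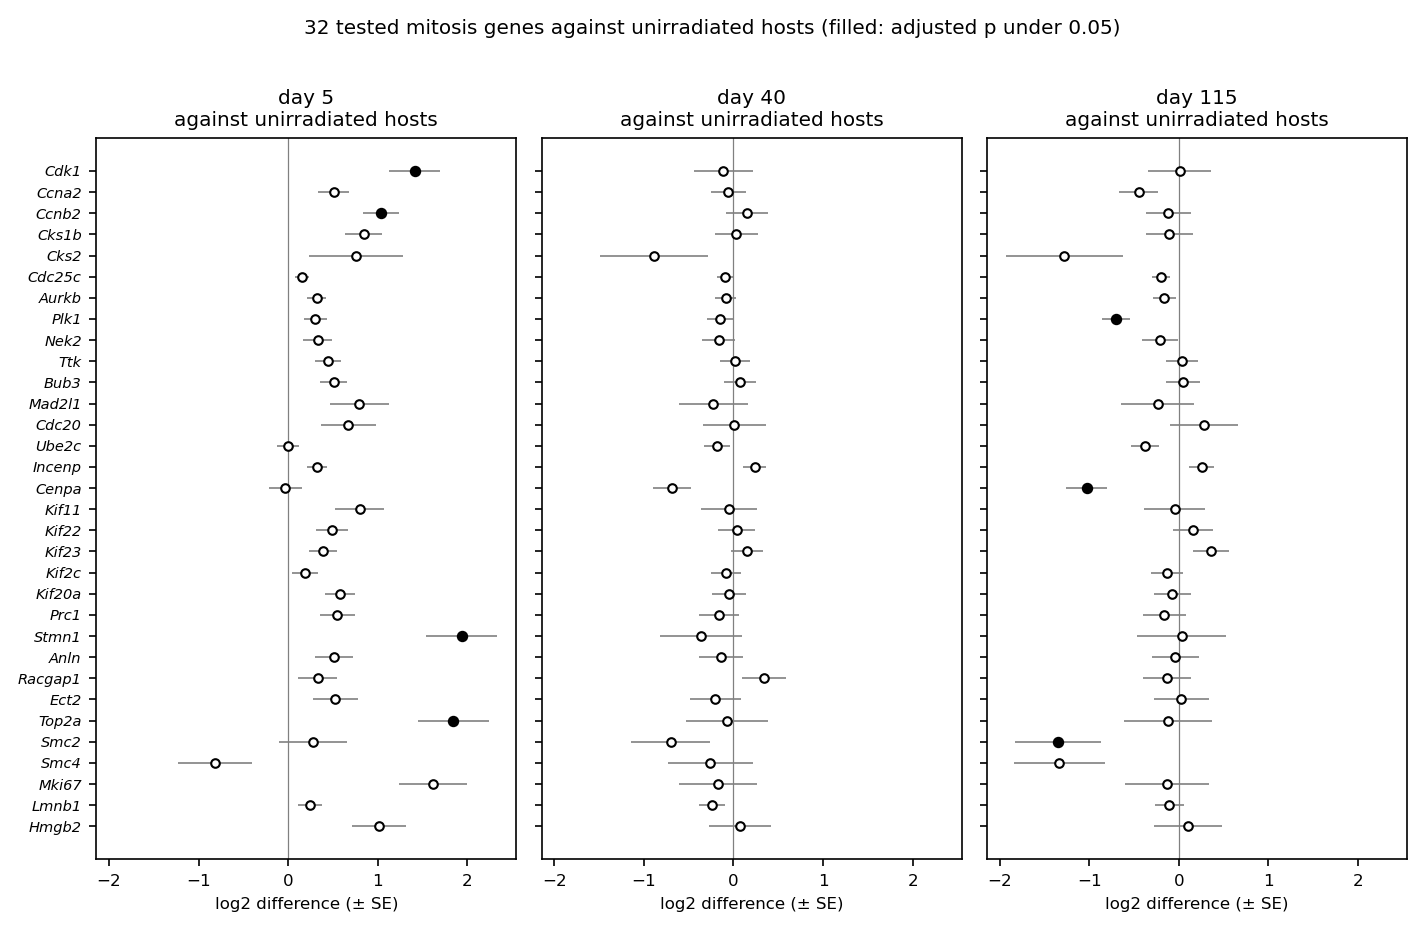
Log2 difference ± SE of the 32 tested genes (rows, by role) against unirradiated hosts at day 5, day 40 and day 115, with filled points at an adjusted p under 0.05 in limma on groups alone. At day 5 nearly all points lie right of 0, with Cdk1, Ccnb2, Stmn1 and Top2a filled, at day 40 none is filled, and at day 115 Plk1, Cenpa and Smc2 are filled on the left.

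The day-5 arrays were not alike. Array 4 was the highest of the 8 for 19 of the 32 members and array 1 for 7, among them Cdc20 and Hmgb2. Array 7 was the lowest for 11 and array 2 for 10. The highest day-5 signal was 12.3 times the lowest for Top2a, 11.9 times for Mki67 and 10.4 times for Cks2, but 1.40 times for Bub3 and 1.49 times for Aurkb. The median SD of the members was 0.44 on the log2 scale at day 5, against 0.21 over all tested probe sets, and it was 0.12 for both in unirradiated hosts. Array 4 had all 32 members above every unirradiated host, and array 2 had 16. Cytokinesis genes had a median of 1.43 in array 4 and 0.03 in array 2, and the cyclin group was higher in arrays 1, 4, 5 and 6, at 1.24, 1.31, 1.28 and 1.18, than in the other 4, at 0.34 to 0.52.

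The 4 day-5 arrays with the lowest medians of mitosis genes, 2, 3, 7 and 8, had the highest sums of erythroid markers (5 of 8 measured), at 2580, 1104, 856 and 769. Arrays 1, 4, 5 and 6 had 395, 452, 346 and 294, and the unirradiated hosts 262 to 343. The sums were carried by Hba-a1, a haemoglobin gene, at 2337, 881, 670.5 and 568 in arrays 2, 3, 7 and 8, against 213, 271, 165 and 128 in arrays 1, 4, 5 and 6. Alas2, of haem synthesis, was also higher in each of arrays 2, 3, 7 and 8, and Klf1 was, except in array 7. Slc4a1 was mixed, and Epb42 was lowest in arrays 7 and 8, at 25.9 and 28.8. Their part in the spread was not tested.

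Most members moved together over the arrays. Each member's log2 signal had a median Pearson correlation of 0.82 with the mean of the other members over the 19 arrays, 0.83 over the 8 arrays of cluster 1, 0.92 over the 11 of cluster 2 and 0.69 over the 8 of day 5. Top2a (0.97) and Mki67 (0.97) were the closest to the rest over the 19 arrays, and Smc4 (0.12) and Kif22 (0.37) the farthest. Smc4 was at -0.28 within cluster 1 and -0.38 within cluster 2, and over the day-5 arrays Kif22 was at -0.27 and Bub3 at -0.02. The points share group and array cluster, so these values are descriptions. Outside the members, the 10 genes closest to the members' mean, out of 7702 probe sets, were Nusap1 (0.98), Cdc6, Pclaf, Fignl1, Dtl, Gmnn, Cdca8, Prim1, Cdca7 and E2f8 (0.92). Pclaf, a clamp-associated factor of replication, averaged 251 ± 182 in day-5 arrays (SD), 25.1 ± 5.83 in day-40 arrays, 21.1 ± 2.47 in day-115 arrays and 47.7 ± 15.1 in unirradiated hosts. Nusap1, which binds spindle microtubules near chromosomes, averaged 139 ± 93.6, 40.9 ± 7.73, 39.1 ± 2.78 and 49.6 ± 0.77 in the same order.

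A wider list of 197 other mitosis genes had 107 tested members. None was called at day 5 against unirradiated hosts on groups alone, where 0.794% of all probe sets were. On unadjusted p, 13 were higher and 7 lower. Their median difference was 0.03, the same as over all probe sets. With the cluster term 4 were called, all higher, against 1% of all probe sets called higher. They were Nusap1 at 1.28, Cdca7 at 0.86, Cdca8 at 0.66 and E2f8 at 0.61. The listed genes include many, such as cohesin, tubulin and anaphase-promoting complex subunits, that cells outside mitosis use too. Whether this bears on the counts was not tested.

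Day 40 against unirradiated hosts asked whether the mitosis genes were still raised. No member was called in either direction, on groups alone or with the cluster term, where 1.5% and 2.23% of all probe sets were. The median difference of the 32 genes was -0.09, against 0.03 over all probe sets, and 1 member, Cenpa at -0.68 ± 0.21 (adjusted p = 0.119), was under an unadjusted p of 0.05, against 15.3% of all probe sets. Cdk1 differed by -0.11, with a 95% interval from -0.80 to 0.58, Top2a by -0.07, from -1.02 to 0.89, and Stmn1 by -0.36, from -1.32 to 0.60. These intervals do not show that the groups are alike, but they leave out the differences of 1.41, 1.84 and 1.94 measured at day 5. Their width comes from a spread shared over all groups, day 5 included, where the members varied most. All day-40 arrays were below all unirradiated hosts for Cks2, Nek2, Cenpa, Prc1 and Lmnb1, 5 of 32, against 5.23% of all probe sets. Of the wider list, Cdc37, Septin6 and Mapre2 were called, all higher.

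Day 115 against unirradiated hosts gave 3 members lower, Plk1, Cenpa and Smc2, and none higher, against 12.8% of all probe sets called lower and 27.9% in either direction. The members' count was thus near or under the share of all probe sets. Cenpa differed by -1.03 ± 0.23 (limma, adjusted p = 0.00508), Plk1 by -0.70 ± 0.16 (adjusted p = 0.0053) and Smc2 by -1.35 ± 0.48 (adjusted p = 0.0423). The other probe sets of Plk1 differed by 0.25 and -0.04. With the cluster term none was called, at -0.49 for Cenpa (adjusted p = 0.162), -0.44 for Plk1 (0.13) and -0.44 for Smc2 (0.612), against 1.27% of all probe sets called lower and 4.42% in either direction. No cluster held arrays of both groups, so the cluster effect removed here came from day-5 and day-40 arrays alone. That fit takes the effect to be the same in every group, and the clusters were drawn from these same signals. Smc2 also lost its call with a pseudocount of 64 and in 6 of the 7 fits that left out 1 array of these groups. All day-115 arrays were below all unirradiated hosts for 11 members, against 21% of all probe sets. Cdk1 differed by 0.01, with a 95% interval from -0.74 to 0.75, and Top2a by -0.12, from -1.16 to 0.91. These intervals too rest on the spread shared over all groups, day 5 included. Beside this, 5 of 9 tested B cell markers and 4 of 6 plasma cell markers were called higher at day 115, and their part in the members' values was not tested. Of the wider list, 16 were called higher and 13 lower, and with the term 8 higher and none lower.

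Day 40 against day 5 asked what became of the mitosis genes after the early phase. Stmn1, Top2a, Mki67, Cdk1 and Ccnb2 were lower at day 40 and no member was higher, against 0.311% of all probe sets called lower and 1.25% in either direction. Stmn1 averaged 129.8 ± 28.3 at day 40 (SD, n = 4) and 799 ± 392 at day 5 (n = 8), a difference of -2.30 ± 0.40 (log2 ± SE; limma, adjusted p = 0.00607). Top2a averaged 35.2 ± 2.43 at day 40 and 226 ± 186 at day 5, a difference of -1.91 ± 0.39 (adjusted p = 0.0194). Mki67 averaged 16.1 ± 1.33 at day 40 and 124 ± 116 at day 5, a difference of -1.79 ± 0.38 (adjusted p = 0.0221). This probe set passed the filter only through its day-5 signals, so its call is a description. Cdk1 differed by -1.53 ± 0.28 (adjusted p = 0.0103) and Ccnb2 by -0.88 ± 0.20 (adjusted p = 0.0354). The median over the 32 genes was -0.64, against -0.00 over all probe sets, and 30 of the 32 differences were negative. For 11 members every day-40 array was below every day-5 array, against 0.805% of all probe sets.

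With the cluster term, 17 members were lower at day 40 and Smc4 was higher, at 0.75 ± 0.20 (adjusted p = 0.0264), against 2.33% of all probe sets called lower and 5.14% higher. The 12 that joined the lower calls were Ccna2, Cks1b, Cks2, Aurkb, Plk1, Nek2, Mad2l1, Cenpa, Kif22, Kif20a, Prc1 and Lmnb1, with differences from -0.40 for Aurkb to -1.47 for Cks2. Within cluster 2, 2 day-40 arrays against 5 of day 5 gave 11 lower calls, against 2.04% of all probe sets. Within cluster 1, 2 arrays against 3 gave none, where 0.0115% of all probe sets were called. Stmn1 differed there by -1.32, Top2a by -0.98 and Mki67 by -1.14. On groups alone, Mki67 lost its call without any 1 day-40 array, Cdk1 without day-40 array 4, Top2a without day-40 array 3 or 4, and Ccnb2 without day-40 array 2, 3 or 4 or day-5 array 5. With only the arrays of these groups in the fit, Stmn1 alone stayed called (adjusted p = 0.0329), and with a pseudocount of 64 Mki67 lost its call, at -1.05 (adjusted p = 0.067). Of the wider list, Nusap1 (-1.26), Cdca7 (-1.06) and Cdca3 (-0.35) were lower at day 40 and Nipbl, a loader of cohesin, was higher at 0.92.

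Day 115 against day 5 had the most calls among the members, with 16 of 32 lower at day 115 and none higher, against 5.62% of all probe sets called lower and 13.9% in either direction. All 6 tested genes of the cyclin group were lower: Cks2 (-2.03), Cdk1 (-1.41), Ccnb2 (-1.15), Ccna2 (-0.96), Cks1b (-0.95) and Cdc25c (-0.35). Of the kinases Plk1, Nek2 and Aurkb were lower, of the kinesin and spindle group Stmn1, Prc1 and Kif20a, and of the chromosome group Top2a, Mki67 and Smc2. Cenpa was lower too, and no gene of the checkpoint or cytokinesis groups was called. In the same comparison 4 of 9 tested B cell markers, 3 of 6 plasma cell markers and 2 of 7 CD8 T cell identity genes were called higher at day 115, and their part in the members' values was not tested.

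Plk1 had the smallest p among the members, at -1.005 ± 0.140 (limma, adjusted p = 0.000307), with 75.0 ± 8.27 at day 115 (SD, n = 3) and 168 ± 30.2 at day 5 (n = 8). One of its other probe sets differed by -0.43 (adjusted p = 0.00691) and the other by -0.10 (0.629). Ccnb2 averaged 77.9 ± 14.0 at day 115 and 199 ± 62.1 at day 5 (adjusted p = 0.00334), and Ccna2 86.5 ± 13.1 at day 115 and 190.0 ± 69.3 at day 5 (adjusted p = 0.00388). Top2a differed by -1.97 ± 0.44 (adjusted p = 0.00733), Stmn1 by -1.91 ± 0.44 (0.00879) and Mki67 by -1.74 ± 0.42 (0.0107). Mki67 passed the filter only through day 5, as stated above. All 32 differences were below 0, with a median of -0.60 against -0.01 over all probe sets, and for 16 members every day-115 array was below every day-5 array, against 5.13% of all probe sets.

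With the cluster term, 14 members were lower, 12 of them among the 16, against 7.1% of all probe sets called lower. Bub3 (-0.54) and Kif22 (-0.62) were added, while Cks2 (-1.15, adjusted p = 0.12), Nek2 (-0.31), Prc1 (-0.57) and Smc2 (-1.06) missed the threshold. Within cluster 1, 3 arrays against 3 gave 5 lower calls, Cdk1 (-1.22), Ccna2 (-0.95), Ccnb2 (-1.38), Plk1 (-0.83) and Mki67 (-1.09), against 0.368% of all probe sets. Leaving out 1 array of these groups ended 9 of the 16 calls from groups alone in at least 1 fit. Aurkb, Cdc25c, Cks1b and Mki67 were lost without day-115 array 2, Kif20a and Smc2 without day-115 array 2 or 3, Cks2 without any 1 day-115 array, Prc1 without any of these or day-5 array 5, and Nek2 in 7 of 11 fits and with a pseudocount of 64. With only the arrays of these groups in the fit, 8 of the 16 stayed called: Cdk1, Ccna2, Ccnb2, Aurkb, Plk1, Cenpa, Stmn1 and Top2a. Of the wider list, 12 were higher and 14 lower, with a median of -0.10.

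**Figure D4:**
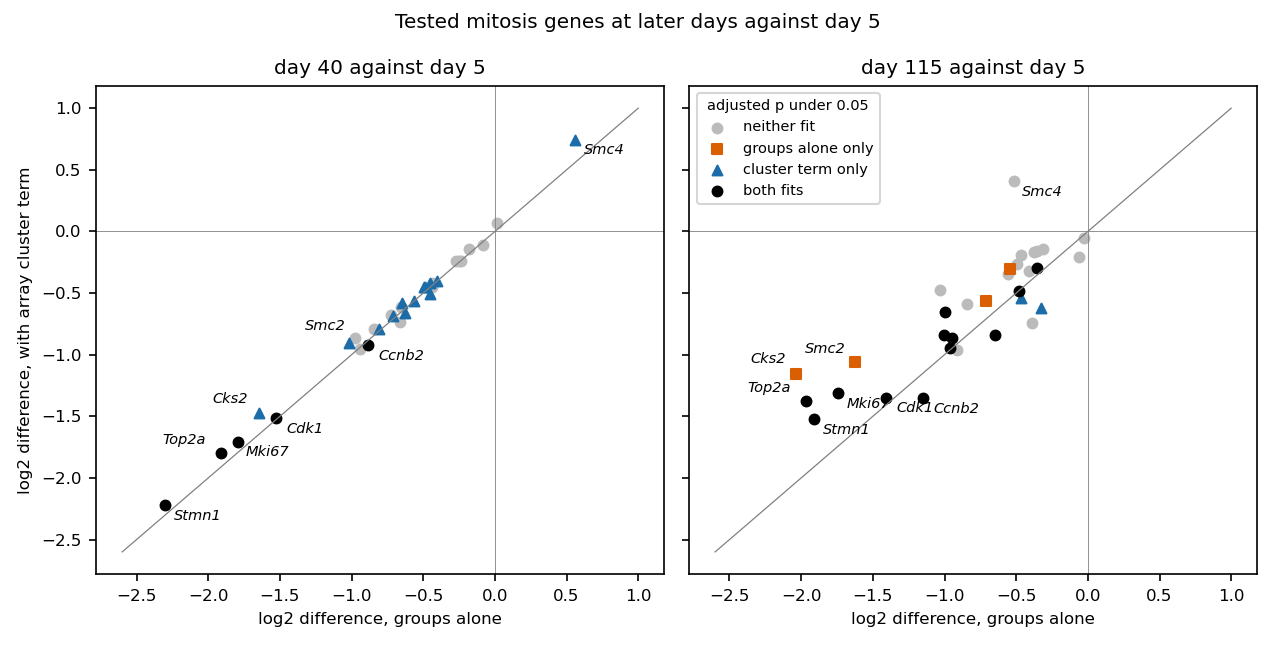
Log2 difference of the 32 tested genes at day 40 (left) and day 115 (right) against day 5, from groups alone (x axis) and with the array cluster as a term (y axis), with a line of equality and symbols for the fit that called them. On the left the points follow the line, from -2.30 for Stmn1 to 0.56 for Smc4. On the right several points lie above it, such as Smc4 at -0.51 on groups alone and 0.41 with the term.

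The 2 later days share the day-5 arrays, so their differences from day 5 are given side by side and not as separate evidence. Stmn1 differed by -2.30 at day 40 and -1.91 at day 115, Cdk1 by -1.53 and -1.41, Plk1 by -0.45 and -1.005, and Cenpa by -0.65 and -0.99. Day 115 against day 40 asked whether the members moved further between the later days. No member was called, on groups alone or with the cluster term, where 0.092% and 0.196% of all probe sets were. The median was -0.03, against -0.01 over all probe sets. Plk1 differed by -0.56 (adjusted p = 0.191) and Smc4 by -1.08 (adjusted p = 0.368), or -0.34 with the term. Cdk1 differed by 0.12, with a 95% interval from -0.62 to 0.86, Top2a by -0.05, from -1.09 to 0.98, and Mki67 by 0.05, from -0.94 to 1.03. The intervals rest on a spread shared over all 19 arrays, day 5 included. The members' median SD was 0.44 at day 5, against 0.17 at day 40 and 0.16 at day 115. Differences of up to about these bounds could not be told from 0 in this fit.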

How the data were processed

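Signal intensities from 19 mouse expression arrays were used as the authors deposited them, on a linear scale with 12488 probe sets, of which 66 controls were left out. The software and scaling that turned scans into intensities were not given in the sources used here, and the number of arrays limits the precision. The linear scale was taken from the values, which run from 7.68 to 13242.28.

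Groups were taken from the titles. Probe sets with a mean signal above the 30th percentile over all arrays (26.4) were tested, 8695 in all, on log2(signal + 16) with limma 3.58.1 in R 4.3.3, with group as the only term, an intensity trend and Benjamini-Hochberg adjustment over all tested probe sets. All 19 arrays entered the same fit, so all 4 groups share an estimate of the spread. A call is an adjusted p under 0.05. Folds understate the change of dim genes. The limma steps were tested on simulated data. Symbols came from the platform annotation, updated through RefSeq gene numbers for 10817 probe sets. Of the 12422 probe sets, 10833 had 1 symbol, 396 several and 1193 none.

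The members, the wider list of mitosis genes and the marker lists were chosen with earlier results of these data known. Values are given by array for Mki67, Stmn1 and members called with or without the array cluster term. From the wider list at most the 4 largest called differences per comparison and direction are named, and the 10 genes most like the members' mean by Pearson correlation. Incenp, Cdc20, Hmgb2 and other members outside this rule are given by range or mean. Alternatives changed the pseudocount, filter, normalisation, trend, probe set rule, array cluster, replicate block and arrays used.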

Additional observations from a re-analysis of the deposited data

Results flagged for a closer look

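Over 24 probe sets and 72 groups of 4 or 8 arrays, 5 groups held 1 array whose gap to its nearest neighbour was large for the range of its group, where chance gives about 1 in 20. Ccna2 was highest in day-5 array 4, at 351.88, with the other 7 from 124.08 to 200.33. Ccnb2 was highest in day-40 array 1, at 129.28, with the other 3 from 85.67 to 87.6. Cenpa was highest in day-40 array 4, at 80.54, with the others from 64.84 to 66.75. The brighter Mki67 probe set was highest in unirradiated array 2, at 32.79, with the others from 15.63 to 17.59. The dimmer Mki67 probe set was lowest in unirradiated array 4, at 29.02, with the others from 31.38 to 31.63.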

How the results depend on the processing

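The number of called members, of 32, changed with the treatment of the array clusters, the arrays fitted and the replicate block. With the cluster term, 7 were higher at day 5 against unirradiated hosts, 0 were lower at day 115 against unirradiated hosts, and 17 were lower and 1 higher at day 40 against day 5. Within cluster 1, 0 were lower at day 40 and 5 at day 115 against day 5, and within cluster 2, 10 were higher at day 5 against unirradiated hosts and 11 lower at day 40 against day 5. Fits on only the groups compared called 0 higher at day 5, 1 lower at day 40 and 6 lower at day 115 against unirradiated hosts. They called 1 lower at day 40 and 8 lower at day 115 against day 5. Of all 8695 probe sets, these fits called 40, 273, 3224, 46 and 658 in either direction, in the same order. Fits on only the groups compared left the log2 differences as they were, such as 1.41 for Cdk1 and 1.84 for Top2a at day 5 against unirradiated hosts. What differed there was the estimate of the spread, and with it p. The cause of the other moves was not tested. Pseudocounts of 1 and 64, no filter, a filter at the 50th percentile, quantile normalisation, no trend, the mean of a gene's probe sets and counting probe sets with several symbols each left the counts of called members within 1.5 times.

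Leaving out 1 array at a time gave 0 to 7 members higher at day 5 against unirradiated hosts, 2 to 3 lower at day 115 against unirradiated hosts, 1 to 11 lower at day 40 against day 5 and 8 to 19 lower at day 115 against day 5. The lowest of these came without unirradiated array 1, day-40 array 4 and day-115 array 2, and the highest without day-5 array 7 and day-5 array 2. The calls of Cdk1, Ccnb2, Stmn1 and Top2a at day 5 against unirradiated hosts were also lost without unirradiated array 3 or 4. No result reversed.

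Over 21 pairs of arrays that share a replicate number, the correlation of their deviations from the group means ran from -0.67 to 0.76 and was over 0.1 in 8, so the numbers were not taken to pair the arrays. Day-5 and day-40 arrays 1, 2 and 4, which lie in the same array cluster, had 0.64, 0.62 and 0.76, and arrays 3, which lie in different clusters, had -0.67. A fit with the replicate number as a block called 16 members higher and 1 lower at day 5 against unirradiated hosts, and 1 lower at day 40 against them. It called 3 lower at day 40 and 5 lower at day 115 against day 5. In these comparisons the same fit called 1707, 407, 35 and 198 of all 8695 probe sets, in either direction. The main fit called 69 at day 5 against unirradiated hosts.

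Counts over all probe sets were 69, 130 and 2427 for day 5, day 40 and day 115 against unirradiated hosts, 109 and 1205 for day 40 and day 115 against day 5, and 8 for day 115 against day 40. With the cluster term they were 140 for day 5 and 384 for day 115 against unirradiated hosts, 650 for day 40 against day 5 and 17 between the later days. Within cluster 2 they were 207 and 267 for day 5 and day 40 against unirradiated hosts and 492 for day 40 against day 5. Within cluster 1 they were 1 and 111 for day 40 and day 115 against day 5 and 0 between the later days. With only the groups compared they were 40 and 273 for day 5 and day 40 against unirradiated hosts, 46 and 658 for day 40 and day 115 against day 5 and 0 between the later days, and with the replicate block 1707, 407, 35, 198 and 3 in that order. Without a filter they were 1865 for day 115 against day 5 and 63 between the later days, where the stricter filter gave 4. Leaving out 1 array at a time gave 13 to 80, 54 to 138 and 1554 to 2006 for day 5, day 40 and day 115 against unirradiated hosts, 25 to 187 and 589 to 1653 for day 40 and day 115 against day 5, and 3 to 87 between the later days. Signals near the filter level, such as those of Mki67 outside day 5, limit what the dimmest members can show.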
